A study of Mus musculus with 12 samples.

Results

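The 34 genes described here encode the enzymes that take glucose through glycolysis to pyruvate and lactate, those that pass pyruvate into the mitochondrion and on to acetyl-CoA, and 4 enzymes of the pentose phosphate pathway. They were chosen by name, as a list of pathway members, from the 54232 genes of the series' count table, and all 34 were found in it. RNA was sequenced from 12 pools of 10 to 20 picked retinal cells of adult male wild-type mice, 3 pools in each of 4 groups. The groups were Olig1 day 7, GFP day 7, Olig1 day 14 and GFP day 14. All eyes had received an AAV2 virus in the vitreous, carrying either Olig1 or green fluorescent protein (GFP), and all had an optic nerve crush, an injury that cuts the axons of retinal ganglion cells, 7 or 14 days before collection. The labels give 14 days of virus for all 4 groups, and do not say whether these count to the crush or to collection, so time after crush and the order of virus and crush cannot be told apart between the days. Per the labels, cells were enriched with magnetic beads against CD90.2, and cells that fluoresced were taken one by one with a Unipick device as ganglion cells. Neither the promoter of the virus nor the number of mice behind a pool is given in the sources used here.

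Glycolysis turns glucose into pyruvate in the cytosol, and lactate dehydrogenase interconverts pyruvate and lactate. Photoreceptors and Müller glia of the retina are known for making much lactate even where oxygen is present, while neurons also burn lactate and pyruvate in their mitochondria. The pentose phosphate pathway branches off at glucose 6-phosphate and yields NADPH and ribose. Many of these steps have several isozymes that differ between cell types, so that a bulk level reflects both how many cells of a type were in a pool and how much RNA each held, which cannot be told apart.

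Total counts ran from 12534515 to 27602459 per library, and the upper limit behind a count of 0 was 0.109 to 0.239 CPM, the count scaled to a library total of 1000000. Across genes, libraries of 1 group correlated at 0.596 to 0.815 and libraries of different groups at 0.507 to 0.681, so the spread between pools was wide. Olig1 itself, which encodes a transcription factor known from oligodendrocyte precursors, averaged 667 ± 393 CPM in Olig1 libraries and 0.224 ± 0.194 CPM in GFP libraries at day 7, and 232 ± 251 CPM in Olig1 libraries and 0.0956 ± 0.135 CPM in GFP libraries at day 14 (SD, n = 3 each). The 14 ganglion cell markers summed to 3234 to 4955 CPM in Olig1 libraries and 218 to 356 CPM in GFP libraries at day 7. At day 14 they summed to 278, 3840 and 225 CPM in Olig1 libraries and to 218 to 424 CPM in GFP libraries. Pou4f3 was at 0 in all 12 libraries, Pou4f2 in all GFP libraries, and Slc17a6 and Pou4f1 in all GFP libraries of day 14. The 11 Müller glia markers summed to 46982 to 146056 CPM over all 12 libraries, so the Müller glia markers summed higher than the ganglion cell markers in every library.

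Promoters of the enolase and lactate dehydrogenase genes are shown because members of both pairs stood apart between the virus groups in different ways, and because basic helix-loop-helix factors such as Olig1 bind the E-box CANNTG, which is in capitals. Each is the RefSeq window on GRCm38.p6, 250 bases before to 50 after an annotated start, 5′ to 3′ on the strand of the gene: chr4:150236458-150236757 (+) for Eno1, chr6:124769624-124769923 (-) for Eno2, chr7:46845554-46845853 (+) for Ldha and chr6:142507908-142508207 (-) for Ldhb.
Eno1: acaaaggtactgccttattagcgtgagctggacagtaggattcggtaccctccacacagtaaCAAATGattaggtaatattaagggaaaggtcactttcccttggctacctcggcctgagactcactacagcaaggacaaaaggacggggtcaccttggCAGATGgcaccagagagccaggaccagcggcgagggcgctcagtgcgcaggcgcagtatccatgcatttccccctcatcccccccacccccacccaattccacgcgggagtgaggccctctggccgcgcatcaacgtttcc
Eno2: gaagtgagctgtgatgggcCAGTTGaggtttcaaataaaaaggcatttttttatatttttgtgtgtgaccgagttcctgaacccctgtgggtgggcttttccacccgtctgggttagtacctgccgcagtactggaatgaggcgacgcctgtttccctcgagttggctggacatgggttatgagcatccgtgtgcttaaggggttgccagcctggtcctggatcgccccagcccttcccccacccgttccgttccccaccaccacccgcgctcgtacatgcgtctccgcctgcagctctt
Ldha: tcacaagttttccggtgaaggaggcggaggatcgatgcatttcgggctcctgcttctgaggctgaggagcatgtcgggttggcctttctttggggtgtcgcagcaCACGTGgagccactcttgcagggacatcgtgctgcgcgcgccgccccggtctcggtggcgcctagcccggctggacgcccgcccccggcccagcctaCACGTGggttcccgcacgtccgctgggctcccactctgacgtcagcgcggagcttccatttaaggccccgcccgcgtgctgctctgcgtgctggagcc
Ldhb: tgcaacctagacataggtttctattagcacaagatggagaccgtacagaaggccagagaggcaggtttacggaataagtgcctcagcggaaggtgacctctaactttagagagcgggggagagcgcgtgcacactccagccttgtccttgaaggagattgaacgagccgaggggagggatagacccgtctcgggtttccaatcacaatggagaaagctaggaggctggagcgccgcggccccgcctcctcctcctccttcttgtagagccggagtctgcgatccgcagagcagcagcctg
The windows held 2 matches of CANNTG for Eno1, 1 for Eno2, 2 for Ldha and 0 for Ldhb. Of the 32851 mouse promoter windows, 72.3% held at least 1, and of the 55 windows of the 34 enzymes 67.3% did, or 37 windows. ACGTG or GCGTG on either strand, the core that hypoxia-inducible factors bind, was present in 72.7% of the enzyme windows, or 40 windows, against 43.8% of all windows; base composition was not matched. Ldha, a textbook target of those factors, had 7 such matches, Eno1 2, Ldhb 1 and Eno2 0. Both CANNTG matches of Ldha were CACGTG, which holds ACGTG on either strand. Each of these sites was counted on both strands, so the 7 matches of Ldha lie at fewer places. A match is a string of letters in 1 window, not evidence of binding.

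Some of these enzymes have processed pseudogenes that carry the same letters, which bears on how their reads could be assigned, so 2 stretches of coding sequence that recur in other genes are shown. They are coding bases 493 to 542 of Gapdh, at chr6:125162898-125162947 on the minus strand of GRCm38, and coding bases 445 to 494 of Eno1, at chr4:150245115-150245164 on the plus strand.
Gapdh: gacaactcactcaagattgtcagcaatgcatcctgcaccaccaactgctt
Eno1: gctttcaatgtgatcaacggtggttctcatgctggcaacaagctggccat
The Gapdh stretch occurred in transcripts of 84 other annotated genes and the Eno1 stretch in those of 5. Over whole coding sequences, the share of 50-base stretches also found in another gene was 100% for Pgk1 and Pgam1, 93.5% for Gapdh, 75.1% for Eno1, 60.5% for Pfkfb2, 53.6% for Pkm and 41.0% for Mpc1. It was 0 for 17 of the 34 enzymes, among them Hk1, Hk2, Pfkp, Pfkfb4, Aldoc, Eno2, Mpc2, Pdk2 and Tkt. Ldhb shared 33.4% with 1 pseudogene that had 339 counts in all, against 440302 for Ldhb. Gapdh shared sequence with 221 other genes, of which 212 have pseudogene transcripts, and the processed pseudogene Gm7336 was given 278047 counts, against 100552 for Gapdh. The counts of Gapdh, the enzyme most used as a reference in expression work, are therefore uncertain here. How reads with several matches were counted is not given in the sources used here.

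**Figure D1:**
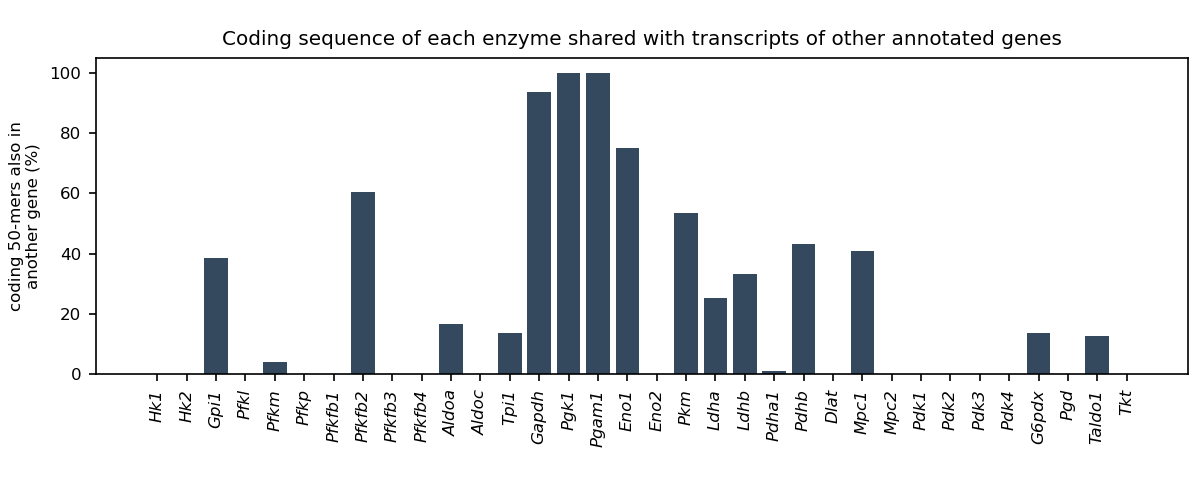
Share of each enzyme's coding 50-base stretches (y axis, percent) that also occur in a transcript of another annotated gene, for the 34 enzymes in order of role (x axis). Gapdh, Pgk1, Pgam1 and Eno1 stand highest, at 75.1% to 100%, and 17 enzymes are at 0.

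Eno1, the enolase found in most tissues, averaged 29873 CPM over the 12 libraries and Aldoa, the aldolase found in most tissues, 14542 CPM and Pkm, the pyruvate kinase of most tissues, 2944 CPM. In all, 9 enzymes averaged at least 1000 CPM, 20 at least 100 CPM and 7 under 20 CPM. Per kilobase of exon, Eno1 averaged 5554 CPM per kb, Aldoa 4995, Ldhb 1147, Tpi1 829.5, Aldoc 756 and Ldha 678. Hk1, Hk2 and the Pfkfb genes stayed at 11.9 or below. The exon length joins all annotated exons of a gene, which may differ from the transcripts present, and the order of genes depends on it. Before this scaling Ldha, at 2245 CPM, was above Ldhb, at 1801 CPM. Counts were present in all 12 libraries for 29 enzymes. Pdk4, which encodes a pyruvate dehydrogenase kinase, had 2 counts in 1 library (GFP day 7 replicate 2), and Pfkfb1 counts in 3 libraries. These 2 did not pass the filter on low counts, and 32 enzymes were tested. Gapdh as counted had the narrowest range, 319 to 494 CPM, within 1.55 times over the 12 libraries. Its counts are uncertain, as given above: the pseudogene Gm7336, which shares most of its coding sequence, was given more counts and ran from 553 to 1395 CPM. The range of Gapdh RNA itself is therefore not known. Pgd, which encodes 6-phosphogluconate dehydrogenase, had the widest range among those with counts in all 12, 0.118 to 66.3 CPM.

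**Figure D2:**
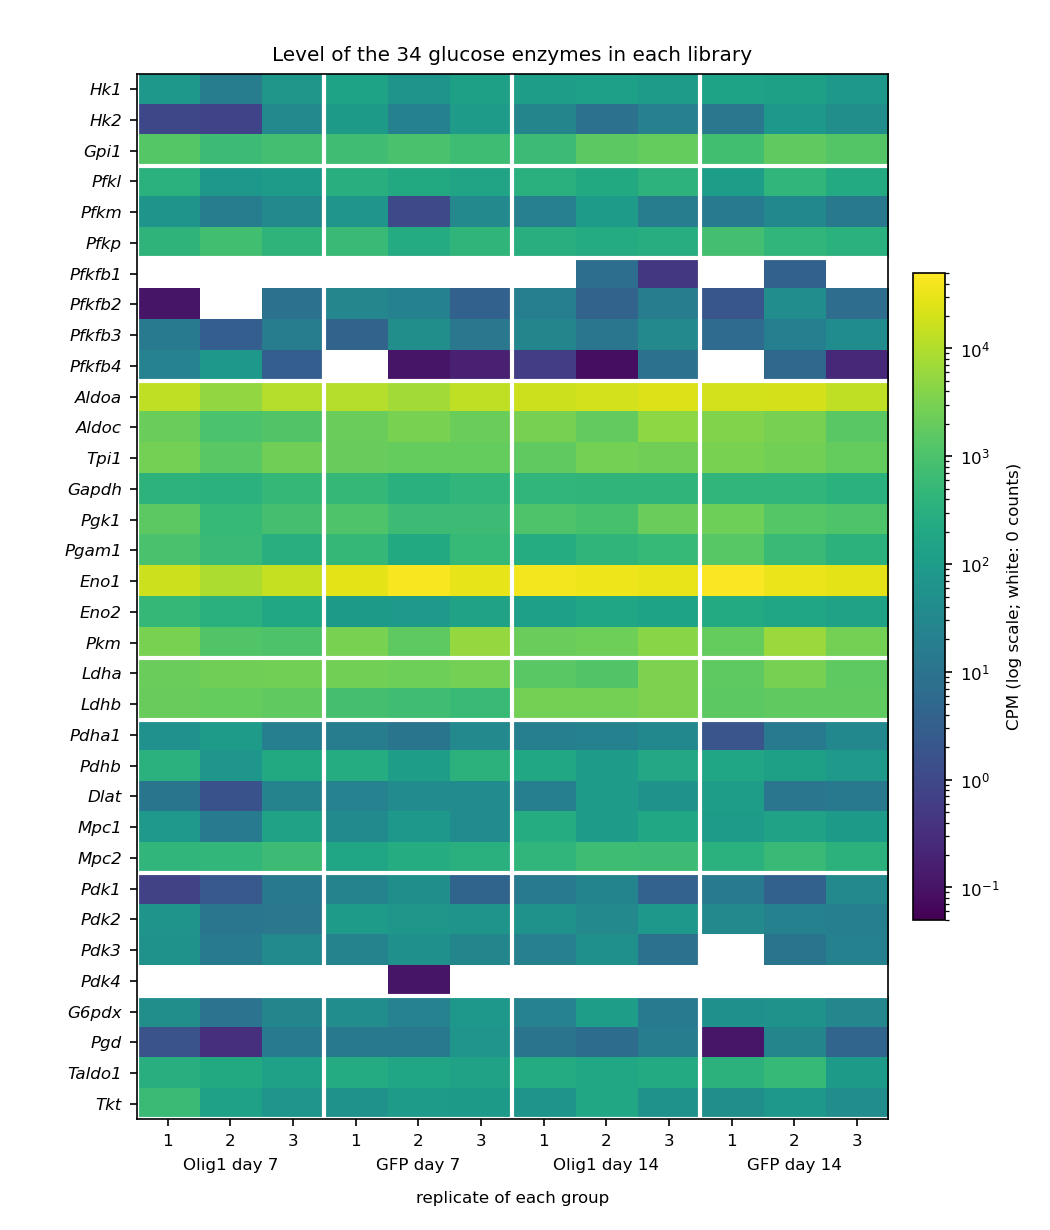
CPM of the 34 enzymes (rows, grouped by role) in the 12 libraries (columns, replicates 1 to 3 of each group), colour on a log scale and white for 0 counts. Eno1 and Aldoa are the brightest rows in every library, and the low rows such as Pfkfb4, Pdk1 and Pgd vary most between replicates.

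Together the 34 enzymes took 38998 ± 11920.3 CPM in Olig1 libraries and 59877 ± 4455 CPM in GFP libraries at day 7, and 75207 ± 5486 CPM in Olig1 libraries and 73118 ± 14716 CPM in GFP libraries at day 14 (SD, n = 3 each). The ratio of Olig1 to GFP was 0.651 at day 7 and 1.03 at day 14. At day 7 the 3 Olig1 libraries, at 26880 to 50710.0 CPM, lay below the 3 GFP libraries, at 55206 to 64078 CPM; at day 14 the groups overlapped. Eno1 made up most of the gap at day 7, with a mean of 13834 ± 4365 CPM in Olig1 libraries and 33677 ± 8313 CPM in GFP libraries (SD, n = 3 each).

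Tested over all 14985 genes that passed the filter, 0 of the 32 enzymes were called between Olig1 and GFP on either day or over both days averaged (edgeR's quasi-likelihood test, Benjamini-Hochberg adjusted p under 0.05). The same test called 0.227% of all genes at day 7, 0.0400% at day 14 and 0.654% over both days averaged, so few calls could fall on any 32 genes. At an unadjusted p under 0.05, 6 enzymes differed at day 7, 5 of them higher in Olig1 libraries (Ldhb, Eno2, Pfkfb4, Mpc2, Tkt) and 1 lower (Eno1), where 13.9% of all genes passed. At day 14, 0 did, where 10.4% of all genes passed. Other tools called more of all genes and more enzymes at day 7: the DESeq2 Wald test called Pfkfb4, Eno2 and Ldhb, and 6.37% of all genes, and limma voom called Eno1 and Ldhb, and 2.87% of all genes. At day 14, 0 enzymes were called by either, with 4.96% of all genes called by DESeq2 and 0.367% by voom. Over the mean of both days DESeq2 called 2 enzymes, Pfkfb4 and Ldhb, and 7.69% of all genes, and limma voom 1, Ldhb, and 3.07% of all genes.

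As a list, the enzymes did not lie to one side. The median log2 fold change was 0.14 at day 7, against -0.03 over all genes tested, and 0.05 at day 14, against 0.09 over all genes tested; 18 enzymes were positive and 14 negative on either day. With library totals as the scale the day 7 median turned to -0.07, with 15 enzymes positive and 17 negative. At day 7 the 3 Olig1 libraries lay above all 3 GFP libraries for 4 enzymes, Pfkfb4, Eno2, Ldhb and Mpc2, and below them for 1, Eno1; of all genes, 9.40% lay above and 9.01% below. At day 14 they lay above for Ldhb and below for Pfkp, where 7.78% of all genes lay above and 4.12% below. The standard errors had a median of 0.557 at day 7 and 0.554 at day 14 on the log2 scale. They reached 2.83 at day 7. Even changes larger than 1 in size were not called at day 7, such as 1.69 ± 0.39 for Ldhb, 1.95 ± 0.52 for Eno2 and -1.17 ± 0.30 for Eno1 (SE). An enzyme that was not called may therefore still differ. At day 7, 18 of the 32 fold changes were smaller than 1 in size, and at day 14, 28.

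**Figure D3:**
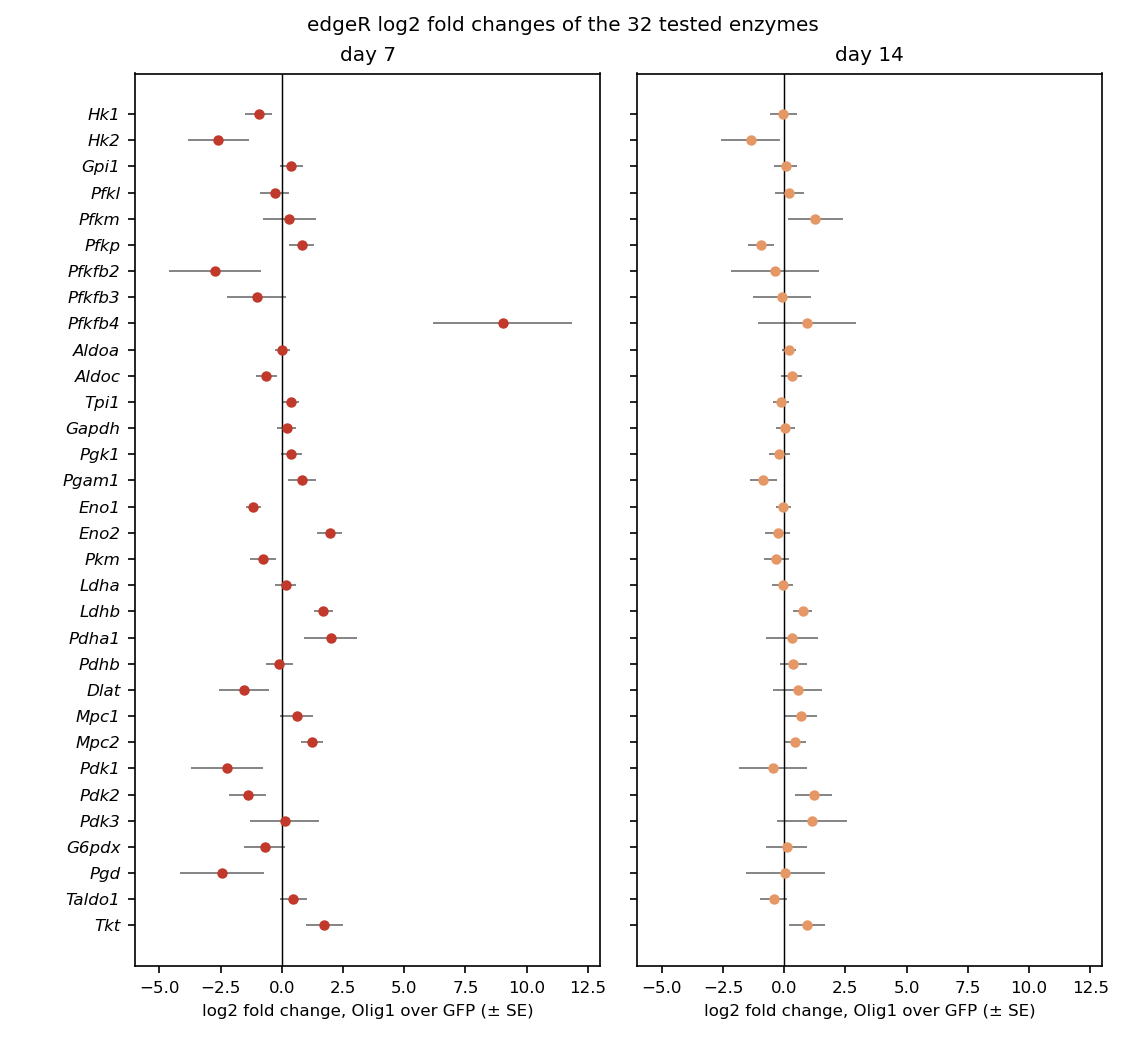
Log2 fold change of Olig1 over GFP with its standard error (x axis) for the 32 tested enzymes (rows, by role) at day 7 (left) and day 14 (right), from edgeR. Ldhb, Eno2 and Pfkfb4 stand to the right at day 7 and Eno1 and Hk2 to the left, while at day 14 most enzymes lie near 0.

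Cell type markers also differed between the virus groups at day 7. The 13 rod markers summed to 625 to 1329 CPM in Olig1 libraries and 12794 to 61456 CPM in GFP libraries at day 7, and to 8259, 1144 and 13041 CPM in Olig1 libraries and 4566, 55123 and 19776 CPM in GFP libraries at day 14. None of the 13 was at 0 throughout a group. The 9 cone markers and the 11 bipolar markers lay lower in all 3 Olig1 libraries at both days, and the 9 amacrine markers higher at day 7, at 1485 to 3220 CPM in Olig1 libraries and 304 to 651 CPM in GFP libraries. The 12 microglia and macrophage markers summed to 937 CPM in Olig1 day 7 replicate 3, 1251 CPM in GFP day 7 replicate 3, and 5059 and 6835 CPM in GFP day 14 replicates 2 and 3, and to 36.1 CPM or less in the other 8 libraries. B and plasma cell markers reached 132547 CPM in GFP day 14 replicate 3 alone. The part of these cells in the enzyme levels was not tested.

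Lactate dehydrogenase held the clearest difference. Ldhb encodes the subunit typical of heart and of cells that take up lactate, and Ldha the subunit typical of muscle and of cells that release it. Ldhb stood at 2066, 1939 and 1694 CPM in Olig1 libraries of day 7, against 836, 706 and 569 CPM in GFP libraries. Its level at day 14 was 2775, 2715 and 3309 CPM in Olig1 libraries, against 1578, 1672 and 1755 CPM in GFP libraries. All 3 Olig1 libraries were above all 3 GFP libraries on both days, and of the 32 enzymes Ldhb was the one for which this held on both days in the same direction. Of all genes, 9.40% lay above at day 7 and 7.78% at day 14. The share of all genes that lay above on both days was not counted. The log2 fold change was 1.69 ± 0.39 at day 7 (SE; edgeR adjusted p = 0.102), 0.76 ± 0.39 at day 14 (adjusted p = 0.533) and 1.22 ± 0.28 over both days averaged (edgeR adjusted p = 0.0559), with the change between days not called (-0.93 ± 0.54, edgeR adjusted p = 0.593). Without the 4 libraries rich in microglia markers, Ldhb had a log2 fold change of 1.72 at day 7. Other markers separated the same libraries: at day 7 ganglion cell and amacrine markers were higher in all 3 Olig1 libraries. Rod, cone and bipolar markers were lower in all 3. At day 14 cone and bipolar markers were lower in all 3, and ganglion cell, amacrine and rod markers overlapped. The part of these cells in Ldhb was not tested. Ldha did not separate: it averaged 2382 ± 232 CPM in Olig1 libraries and 2576 ± 206 CPM in GFP libraries at day 7, and 1979 ± 1100.0 CPM in Olig1 libraries and 2042 ± 715 CPM in GFP libraries at day 14 (SD, n = 3 each).

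**Figure D4:**
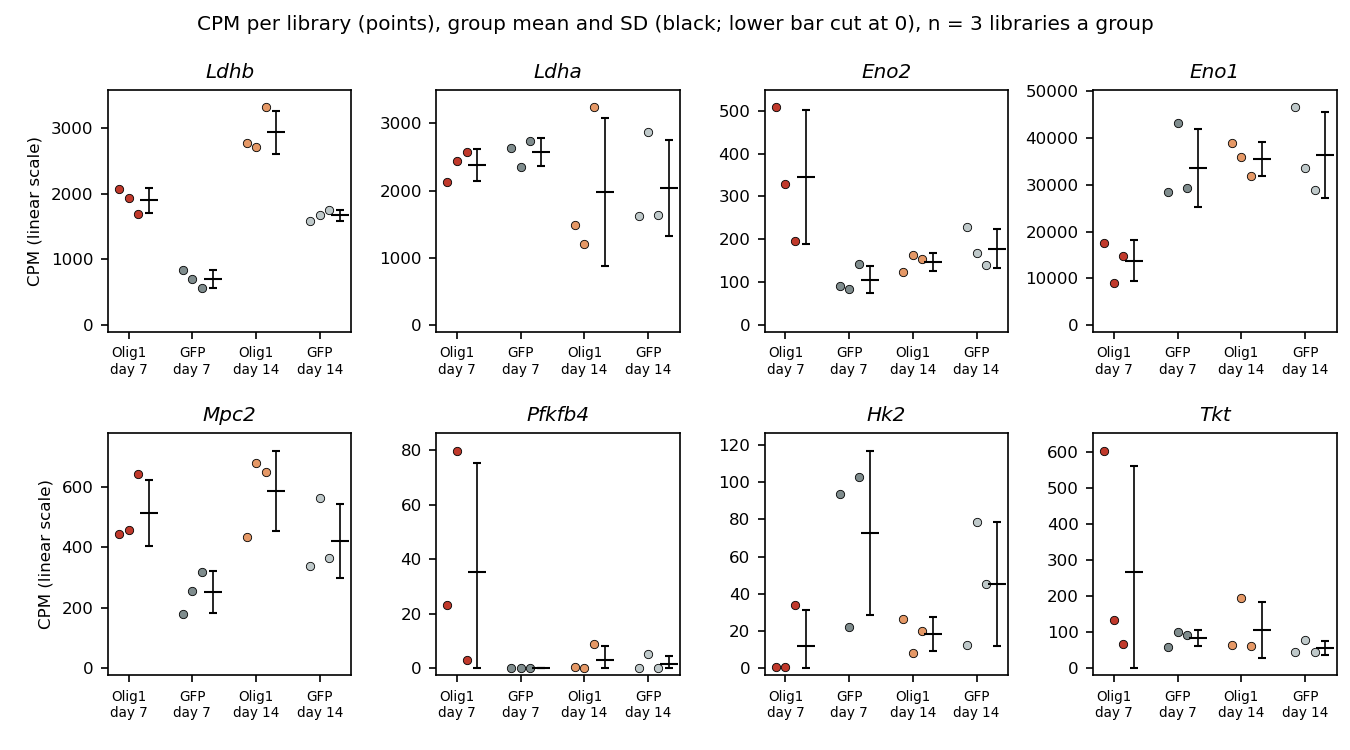
CPM per library (points, linear y axis) with group mean and SD (black) for 8 enzymes in Olig1 and GFP libraries of day 7 and day 14, n = 3 a group. Ldhb is higher in all Olig1 libraries on both days, Eno2 and Mpc2 at day 7, Eno1 is lower at day 7, and the Tkt mean of Olig1 day 7 rests on 1 library at 603 CPM.

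The share of Ldhb in the pair, from counts divided by exon length, does not depend on how libraries are scaled. It was 67.2%, 62.6% and 58.1% in Olig1 libraries of day 7, against 40.03%, 38.8% and 30.5% in GFP libraries. At day 14 it was 79.6%, 82.6% and 68.3% in Olig1 libraries, against 67.2%, 55.1% and 69.4% in GFP libraries. The means differed by 26.2 percentage points at day 7 and 13.0 at day 14, with groups apart on day 7 and overlapping on day 14. Exact two-sided permutation tests gave p = 0.1 at day 7, the smallest that 3 against 3 allows, and 0.2 at day 14, and over the 24 share tests the smallest adjusted p was 0.48. The size of the share depends on the exon lengths used. On raw counts the mean Ldhb share was 44.4% in Olig1 libraries and 21.5% in GFP libraries at day 7. At day 14 the raw share was 61.6% in Olig1 libraries and 46.0% in GFP libraries.

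The enolases stood on opposite sides at day 7. Eno1 stood at 17686, 9094 and 14722 CPM in Olig1 libraries, against 28502, 43265 and 29263 CPM in GFP libraries. Day 14 gave 38988, 35961 and 31815 CPM in Olig1 libraries, against 46588, 33669.9 and 28921 CPM in GFP libraries. The groups did not overlap at day 7 and did at day 14. The log2 fold change was -1.17 ± 0.30 at day 7 (edgeR adjusted p = 0.145) and -0.03 ± 0.30 at day 14 (edgeR adjusted p = 1.000). Its copies Gm4735, a processed pseudogene, and Eno1b, annotated as protein coding, ran alongside far below its level: Gm4735 averaged 182 ± 50.04 CPM in Olig1 libraries and 429.6 ± 133 CPM in GFP libraries at day 7, and Eno1b 184 ± 44.9 CPM in Olig1 libraries and 394 ± 32.0 CPM in GFP libraries (SD, n = 3 each).

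Eno2, the enolase typical of neurons, stood at 508, 329.6 and 197 CPM in Olig1 libraries of day 7, against 92.4, 83.9 and 143 CPM in GFP libraries. At day 14 it stood at 125, 164 and 155 CPM in Olig1 libraries, against 229, 167 and 140.2 CPM in GFP libraries. All 3 Olig1 libraries were higher at day 7, and the groups overlapped at day 14. The log2 fold change was 1.95 ± 0.52 at day 7 (edgeR adjusted p = 0.165) and -0.27 ± 0.50 at day 14 (edgeR adjusted p = 1.000), and the difference between the days was -2.22 ± 0.72 (edgeR adjusted p = 0.346). As a share of both enolases, Eno2 took 3.18%, 3.98% and 1.51% in Olig1 libraries of day 7, against 0.369%, 0.221% and 0.555% in GFP libraries, and 0.479% ± 0.101 in Olig1 libraries and 0.558% ± 0.00692 in GFP libraries at day 14 (SD, n = 3 each). The ganglion cell markers, which do not include Eno2, were higher in the same 3 libraries at day 7. Olig1 day 14 replicate 2, with 3840 CPM of these markers, had 164 CPM of Eno2, within the range of the GFP libraries of that day. The part of ganglion cells in Eno2 was not tested.

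**Figure D5:**
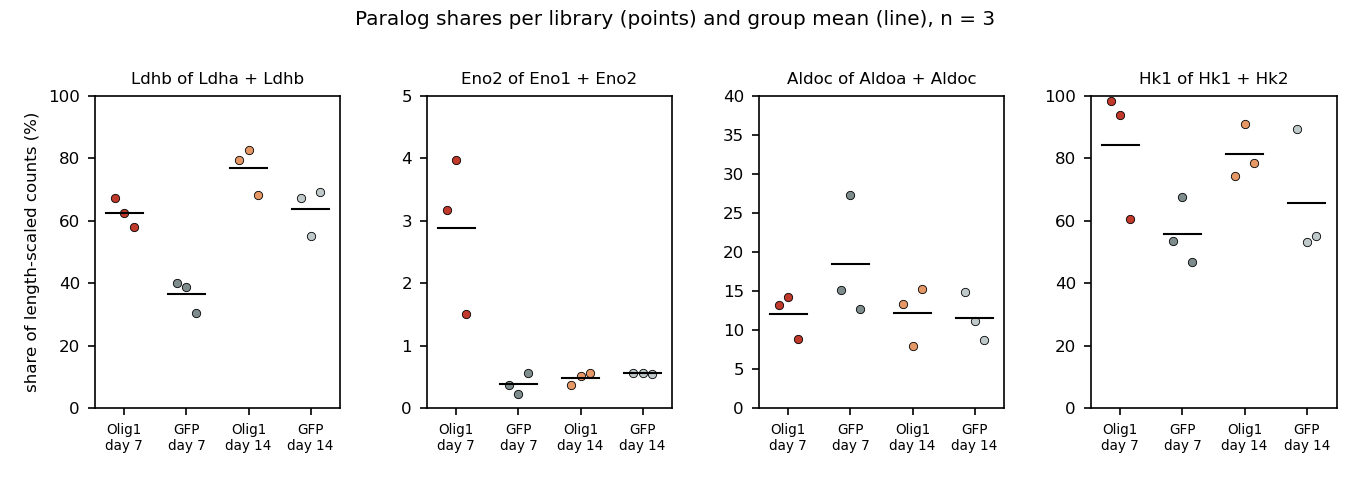
Share of 1 paralog in the length-scaled counts of its pair (y axis, percent; the scale differs between panels) per library (points) with the group mean (line), n = 3 a group. The Ldhb and Eno2 shares of Olig1 libraries lie above those of GFP libraries at day 7; the Aldoc and Hk1 shares overlap.

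Of the enzymes between aldolase and pyruvate kinase, Aldoa stood at 13109, 5311 and 10951 CPM in Olig1 libraries of day 7, against 10842, 7303 and 13469 CPM in GFP libraries. Its level at day 14 was 17260.3, 19186 and 24083 CPM in Olig1 libraries, against 18935, 20636 and 13415 CPM in GFP libraries. The virus groups overlapped on both days, with log2 fold changes of 0.02 ± 0.29 and 0.19 ± 0.29, among the smallest standard errors of the list. Aldoc, the aldolase typical of brain, made up 12.1% ± 2.82 of the pair in Olig1 libraries and 18.4% ± 7.81 in GFP libraries at day 7 (SD, n = 3 each), and the groups overlapped.

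Pkm stood at 3022, 1204 and 1069 CPM in Olig1 libraries of day 7, against 3116, 1587 and 5617 CPM in GFP libraries. Day 14 gave 2298, 2345 and 4178 CPM in Olig1 libraries, against 1914, 6226 and 2751 CPM in GFP libraries. Single GFP libraries were highest on both days, and the groups overlapped. Pgam1, a phosphoglycerate mutase, stood at 928, 592 and 300.3 CPM in Olig1 libraries of day 7, against 503, 224 and 535 CPM in GFP libraries, and at 256, 426 and 534 CPM in Olig1 libraries of day 14, against 1408, 560.3 and 352 CPM in GFP libraries. Its groups overlapped on both days (log2 fold changes 0.82 ± 0.56 and -0.86 ± 0.56), and all of its coding stretches recur in pseudogenes. Tpi1, Gapdh and Pgk1, which encode triosephosphate isomerase, glyceraldehyde 3-phosphate dehydrogenase and phosphoglycerate kinase, had log2 fold changes between -0.21 and 0.38 on both days. Reads given to the pseudogene Gm7336 are not in the Gapdh values.

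The hexokinases phosphorylate glucose on entry; Hk1 is the isozyme of most neural tissue and Hk2 is known from photoreceptors in the retina. Hk2 stood at 0.978, 0.798 and 34.2 CPM in Olig1 libraries of day 7, against 93.3, 22.004 and 103 CPM in GFP libraries. At day 14 it stood at 26.4, 8.43 and 20.3 CPM in Olig1 libraries, against 12.3, 78.7 and 45.3 CPM in GFP libraries. 2 Olig1 libraries of day 7 were near 1 CPM and replicate 3 overlapped the GFP range. The log2 fold change was -2.59 ± 1.25 at day 7 (edgeR adjusted p = 0.372) and -1.38 ± 1.20 at day 14 (edgeR adjusted p = 0.895); without Olig1 day 7 replicate 3 the day 7 value was -5.93 (edgeR adjusted p = 0.0713). The 3 libraries with the least Hk2, Olig1 day 7 replicates 1 and 2 and Olig1 day 14 replicate 2, had 625, 1107 and 1144 CPM of rod markers, while Olig1 day 7 replicate 3 had 34.2 CPM of Hk2 beside 1329 CPM of rod markers. The part of rods in Hk2 was not tested. Hk1 averaged 57.5 ± 34.7 CPM in Olig1 libraries and 116 ± 45.5 CPM in GFP libraries at day 7 and 114 ± 9.39 CPM in Olig1 libraries and 118 ± 35.4 CPM in GFP libraries at day 14 (SD, n = 3 each). Gpi1, glucose-6-phosphate isomerase, ran from 641 to 1866 CPM over the 12 libraries, with fold changes of 0.39 ± 0.48 and 0.06 ± 0.48 on the log2 scale.

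Phosphofructokinase commits sugar to glycolysis, and its 3 genes averaged 36.4 (Pfkl, the liver type), 32.0 (Pfkp, the platelet type) and 10.5 (Pfkm, the muscle type) CPM per kb over the 12 libraries. Pfkp stood at 396, 759 and 391 CPM in Olig1 libraries of day 7, against 542, 242 and 411 CPM in GFP libraries. Its level at day 14 was 288, 242 and 279.8 CPM in Olig1 libraries, against 795, 457 and 338 CPM in GFP libraries. The groups overlapped at day 7, and all 3 Olig1 libraries were lower at day 14. The log2 fold change was 0.80 ± 0.52 at day 7 (edgeR adjusted p = 0.529) and -0.94 ± 0.52 at day 14 (edgeR adjusted p = 0.602), the day 7 value turned to -0.09 without Olig1 day 7 replicate 2, and the difference between days was -1.75 ± 0.74 (edgeR adjusted p = 0.461). Its share of the 3 genes at day 14 was 25.1% ± 3.01 in Olig1 libraries and 48.0% ± 22.1 in GFP libraries (SD, n = 3 each; exact permutation p = 0.1, adjusted 0.48). The GFP libraries were at 73.0%, 31.5% and 39.4%. The first of these, GFP day 14 replicate 1, had counts for 10129 genes, the fewest of the 12 libraries. Pfkl ran from 79.1 to 433 CPM and Pfkm from 1.04 to 102 CPM. Pfkp shares 748 exon bases with Pitrm1 on the other strand, which had 859 counts against 102338.

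The Pfkfb genes encode bifunctional enzymes that set the level of fructose 2,6-bisphosphate, the activator of phosphofructokinase, and all were low. Pfkfb4 stood at 23.2, 79.9 and 3.04 CPM in Olig1 libraries of day 7, against 0, 0.109 and 0.176 CPM in GFP libraries, which were 0, 2 and 3 counts. Day 14 gave 0.630, 0.0815 and 9.15 CPM in Olig1 libraries, against 0, 5.14 and 0.251 CPM in GFP libraries. The groups did not overlap at day 7 and did at day 14. The fitted log2 fold change of 9.01 ± 2.83 at day 7 (edgeR adjusted p = 0.232) depends on the prior count, as the GFP side was at the limit of counting. DESeq2 called Pfkfb4 at day 7 and in the difference between days, where it called 3.52% of all genes and voom 0.00%. That difference was -8.09 ± 3.21 by edgeR (adjusted p = 0.423). Pfkfb3, the form known as highly active in making the activator, ran from 3.11 to 45.5 CPM and Pfkfb2 from 0 to 43.5 CPM, with groups overlapping.

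Pyruvate enters mitochondria through a carrier of Mpc1 and Mpc2, is turned into acetyl-CoA by pyruvate dehydrogenase (Pdha1, Pdhb, Dlat), and the Pdk kinases switch that enzyme off. Mpc2 stood at 443, 457 and 640.3 CPM in Olig1 libraries of day 7, against 179, 255 and 318 CPM in GFP libraries. At day 14 it stood at 435, 677 and 649 CPM in Olig1 libraries, against 338, 562 and 364 CPM in GFP libraries. All 3 Olig1 libraries were higher at day 7, with 1.24 ± 0.45 on the log2 scale (edgeR adjusted p = 0.272), and the groups overlapped at day 14 (0.46 ± 0.45, edgeR adjusted p = 0.936). Mpc1, its partner, stood at 83.4, 15.6 and 146 CPM in Olig1 libraries of day 7, against 37.7, 77.1 and 38.8 CPM in GFP libraries, and at 257, 104.8 and 193 CPM in Olig1 libraries of day 14, against 97.3, 145 and 93.6 CPM in GFP libraries. The Mpc1 groups overlapped on both days (0.60 ± 0.66 and 0.70 ± 0.66). Its processed pseudogene Mpc1-ps had 16983 counts against 26905 for Mpc1, and averaged 50.8 ± 37.9 CPM in Olig1 libraries and 31.7 ± 19.2 CPM in GFP libraries at day 7 (SD, n = 3 each). Pdha1 ran from 1.92 to 98.4 CPM, Pdhb from 72.6 to 360.1 CPM and Dlat from 1.60 to 111 CPM, each with overlapping groups on both days.

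Pdk2 stood at 63.1, 11.4 and 12.2 CPM in Olig1 libraries of day 7, against 97.4, 76.7 and 62.2 CPM in GFP libraries. Its level at day 14 was 61.4, 33.0 and 77.1 CPM in Olig1 libraries, against 33.3, 22.03 and 19.2 CPM in GFP libraries. The groups overlapped on both days through 1 library each, with the Olig1 mean lower at day 7 and higher at day 14. The log2 fold changes were -1.39 ± 0.75 at day 7 (edgeR adjusted p = 0.429) and 1.20 ± 0.75 at day 14 (edgeR adjusted p = 0.701), and their difference was 2.59 ± 1.06 (edgeR adjusted p = 0.449). Within the kinase family at day 7, Pdk2 took 33.6% ± 13.1 of length-scaled counts in Olig1 libraries and 60.5% ± 11.9 in GFP libraries, and Pdk3 62.4% ± 8.75 in Olig1 libraries and 32.3% ± 9.55 in GFP libraries (SD, n = 3 each; exact permutation p = 0.1 for both, adjusted 0.48). The groups did not overlap for either share. Pdk1 ran from 0.707 to 49.6 CPM, overlapping on both days. Pdk3 stood at 60.3, 16.04 and 35.8 CPM in Olig1 libraries of day 7, against 23.7, 51.3 and 28.97 CPM in GFP libraries, and at 20.8, 50.8 and 8.46 CPM in Olig1 libraries of day 14, against 0, 10.3 and 21.4 CPM in GFP libraries. Its groups overlapped on both days.

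In the pentose phosphate pathway, Tkt, transketolase, stood at 603, 135 and 67.4 CPM in Olig1 libraries of day 7, against 58.6, 102 and 91.7 CPM in GFP libraries. Day 14 gave 63.8, 196 and 61.2 CPM in Olig1 libraries, against 46.2, 77.8 and 44.4 CPM in GFP libraries. The groups overlapped on both days. The log2 fold change was 1.74 ± 0.75 at day 7 (edgeR adjusted p = 0.321), was 0.77 without Olig1 day 7 replicate 1, and was 0.93 ± 0.73 at day 14 (edgeR adjusted p = 0.851). G6pdx, the entry enzyme of the pathway, ran from 9.49 to 108 CPM, Pgd from 0.118 to 66.3 CPM and Taldo1, transaldolase, from 95.5 to 514 CPM, each with overlapping groups. G6pdx shares 418 exon bases with Ikbkg on the other strand, and without a stated strand setting their reads cannot be told apart.

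Over time, 23 of the 32 enzymes had a positive fold change of day 14 over day 7 in each virus, though 0 of 32 were called in either; the count was 20 in Olig1 with DESeq2 size factors and 20 in GFP with library totals as the scale. The difference of the virus effect between days was also called for 0 enzymes; edgeR called 0.00% of all genes there, 0.0334% for day 14 against day 7 in Olig1 and 0.00% in GFP. At an unadjusted p under 0.05, 6 enzymes passed for the difference between days (2 positive, 4 negative), where 9.90% of all genes passed. For day 14 against day 7, 7 enzymes passed in Olig1 libraries, 6 of them higher at day 14, where 11.8% of all genes passed, and 4 in GFP libraries, all higher at day 14, where 10.3% of all genes passed. The median log2 fold change of day 14 over day 7 was 0.67 in Olig1 libraries, against -0.01 over all genes tested, and 0.40 in GFP libraries, against -0.14 over all genes tested. These medians depend on scaling: with library totals the median of all genes was -0.21 in Olig1 and -0.46 in GFP, and the enzyme medians were 0.57 in Olig1 and 0.10 in GFP. With DESeq2 size factors the median of all genes was -0.19 in Olig1 and -0.25 in GFP, and the enzyme medians 0.46 in Olig1 and 0.29 in GFP. Eno1 had the smallest p in Olig1 libraries, at 1.51 ± 0.30 (edgeR adjusted p = 0.197), and 0.37 ± 0.30 in GFP libraries (edgeR adjusted p = 0.824). Aldoa was at 1.23 ± 0.30 in Olig1 libraries (edgeR adjusted p = 0.305) and 1.06 ± 0.29 in GFP libraries (edgeR adjusted p = 0.442). Ldhb was at 0.65 ± 0.38 in Olig1 libraries (edgeR adjusted p = 0.534) and 1.59 ± 0.39 in GFP libraries (edgeR adjusted p = 0.424). By limma voom, Aldoa and Eno1 were called in Olig1 libraries, with 2.09% of all genes, and Aldoa in GFP libraries, with 0.113% of all genes. By DESeq2, 0 enzymes were called in either, with 4.18% of all genes called in Olig1 and 4.31% in GFP. Cell type markers differed between the days too: the 4 horizontal cell markers summed to 3692 to 12406.5 CPM at day 14 and 44.2 to 183 CPM at day 7 in Olig1 libraries, and to 617, 1426 and 8470 CPM at day 14 and 72.2, 1517 and 117 CPM at day 7 in GFP libraries. The ganglion cell markers were lower at day 14 in 2 of the 3 Olig1 libraries. The part of these cells in the enzyme levels over time was not tested.

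Neighbouring steps of the same metabolism were read from lists of other genes. At day 7 and day 14, 0 genes were called by edgeR in any of the 7 lists, with 7 of 14 other glycolytic isozymes tested, 6 of 6 other pyruvate enzymes, 4 of 6 other pentose phosphate enzymes, 10 of 13 gluconeogenesis and glycogen genes, 6 of 8 transporters, 9 of 10 hypoxia factors and hypoxia-responsive genes and 15 of 15 citrate cycle genes. Of the 57 genes tested, 10 had an unadjusted p under 0.05 at day 7 and 3 at day 14, where 13.9% and 10.4% of all genes passed. The DESeq2 calls at day 7 included Sdhb, limma voom called 2 genes, Pdp1 and Bsg, and at day 14 either tool called 0. At an unadjusted p under 0.05, 6 of the 15 citrate cycle genes passed at day 7, 5 of them higher in Olig1 libraries, where 13.9% of all genes passed, and the list's median log2 fold change was 0.70, against -0.03 over all genes tested. Sdhb, a subunit of succinate dehydrogenase, had the smallest p among them, at 458, 477 and 307 CPM in Olig1 libraries of day 7, against 170.3, 75.4 and 227 CPM in GFP libraries (1.74 ± 0.51, edgeR adjusted p = 0.203). The 3 Olig1 libraries were the highest. Sdha, another subunit, had the smallest p at day 14, at 102, 119.9 and 115 CPM in Olig1 libraries, against 296, 195 and 319 CPM in GFP libraries (-1.34 ± 0.55, edgeR adjusted p = 0.438). Among hypoxia genes, Epas1, which encodes HIF-2 alpha, had the smallest p at day 7 (-3.19 ± 1.31, edgeR adjusted p = 0.300) and Egln1, a prolyl hydroxylase that acts on these factors, at day 14 (-1.85 ± 1.15, edgeR adjusted p = 0.699).

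Bsg, basigin, the chaperone that brings lactate transporters to the cell surface, was the 1 listed gene called in any of the 6 contrasts. It stood at 1431, 1142 and 1469 CPM in Olig1 libraries of day 7, against 4327, 5326 and 5145 CPM in GFP libraries. At day 14 it stood at 14462, 5740.1 and 8609.9 CPM in Olig1 libraries, against 11435, 9612 and 4494 CPM in GFP libraries. All Olig1 libraries were lower at day 7, and the groups overlapped at day 14. Bsg rose at day 14 over day 7 in Olig1 libraries, with a log2 fold change of 2.91 ± 0.41 (edgeR adjusted p = 0.0270). DESeq2 and limma voom also called it, with Pdpr and Pygl called beside it by 1 tool each. The adjusted p passed 0.05 without Olig1 day 7 replicate 1 (0.0513), Olig1 day 14 replicate 1 (0.0668) or Olig1 day 14 replicate 3 (0.0570), with log2 fold changes of 2.50 or more. The 4 horizontal cell markers, at 3692 to 12406.5 CPM at day 14 and 44.2 to 183 CPM at day 7, differed between the same libraries. Rod markers were at 8259, 1144 and 13041 CPM at day 14 and 625 to 1329 CPM at day 7. Ganglion cell markers were at 278, 3840 and 225 CPM at day 14 and 3234 to 4955 CPM at day 7. Microglia and macrophage markers were at 3.10 to 13.8 CPM at day 14 and 26.9 to 937 CPM at day 7. The part of these cells in Bsg was not tested. Bsg was 1.01 ± 0.38 higher at day 14 in GFP libraries (edgeR adjusted p = 0.442). Between the viruses it was at -1.68 ± 0.39 at day 7 (edgeR adjusted p = 0.0975), and the difference of this effect between days was 1.90 ± 0.54 (edgeR adjusted p = 0.341), so the virus groups were not shown to differ in the change over time. Other lists had their smallest p at day 7 in Pdp1, Rpia and G6pc3 and at day 14 in Pdpr, H6pd, Pygm and Slc16a3, with edgeR adjusted p between 0.342 and 0.818.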

How the data were processed

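RNA-seq was available as counts per gene for 12 libraries, 3 in each of 4 groups. The deposited values are whole-number counts that the authors made with FastQC, HISAT2 and HTSeq on mm10, per the submitters' processing notes; the sources used here do not give versions, the annotation release, the strand setting or the treatment of reads with several matches. Of the deposited per-library count files, 4 ended early, by 270, 1193, 1452 and 2853 genes, and these genes were read from the deposited table of the whole series, which differed from the files at 0 genes. Gene identifiers were named from GENCODE M21 on GRCm38: 54165 of 54232 had a symbol and 67 did not. Aldoa had 2 identifiers, and the one with more counts was used (the second held 57 counts).

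Levels are CPM over total counts, with group mean and SD. A count of 0 is read against a floor of 3 counts, which covers counting error only, since libraries were amplified by 20 PCR cycles without molecular identifiers. All 12 libraries entered 1 edgeR 4.0.16 quasi-likelihood fit of the 4 groups (R 4.3.3; robust, TMM scaling, filterByExpr with a minimum count of 10), which kept 14985 genes, with a common biological coefficient of variation of 1.35. Benjamini-Hochberg adjustment ran over all genes tested, at a threshold of 0.05. DESeq2 1.42.0 and limma 3.58.1 (voom with sample weights), other filters and scalings, the replicate number as a block and leaving out each library were alternatives. After the main fit, the test was also run on counts simulated from the means and spread of these data, with 200 changed genes. How many of these it recovered is not given here. Shares within an enzyme family used counts divided by exon length and exact permutation tests, over families with at least 20 counts in a library (scipy 1.17.1, numpy 2.4.6, pandas 2.3.3; Python 3.11.15; figures with matplotlib 3.10.9). Promoter windows are RefSeq's on GRCm38.p6.

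The enzymes, the marker lists and the other pathway lists were chosen with earlier results of these data known. Values of every library are given for enzymes called by edgeR in any contrast (0 were), for the enzyme with the smallest p of its role on either day, and for the 3 of highest mean CPM; Eno2 and Pdk3 were added because an alternative called them, and Bsg because edgeR did, after their values were seen. Of each other list, the gene with the smallest p on either day is named, apart from some that are not reported here. The labels do not say that libraries came from separate mice, so p-values measure the spread between libraries, which may be technical. Batches are mentioned in the labels but tied to no library.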

Additional observations from a re-analysis of the deposited data

How the results depend on the processing

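edgeR called 0 enzymes in each of the 6 contrasts. For Olig1 against GFP at day 7 DESeq2 called 3 (Pfkfb4, Eno2 and Ldhb), limma voom 2 and the fit without a filter 2 (Eno1 and Ldhb in both). Over both days averaged, DESeq2 called 2 (Pfkfb4 and Ldhb), voom 1 (Ldhb), the fit without a filter 2 (Eno1 and Ldhb), library totals 1 (Ldhb), and leaving out single libraries 0 to 2 (Hk2 and Ldhb without Olig1 day 7 replicate 3). Pdk3 was called there without the 4 libraries rich in microglia markers. That fit kept GFP day 14 replicate 1 alone for its group, and this library had 0 counts of Pdk3. For the difference between days DESeq2 called 1 (Pfkfb4). For day 14 against day 7, voom called 1 in GFP (Aldoa) and 2 in Olig1, where the fit without a filter also called 2 (Aldoa and Eno1). At day 14 every alternative called 0, and DESeq2 size factors and the stricter filter called 0 in every contrast. Of 3967 enzyme fold changes under alternatives, 3749 kept their direction and side of the threshold, 196 uncalled ones changed sign and 22 became called. Bsg in Olig1 libraries was at 2.50 to 3.11 when single libraries were left out; DESeq2 size factors (adjusted p 0.0652), a fit of the Olig1 groups alone (0.174) and leaving out the microglia-rich libraries (0.0870) each ended its call.

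With the replicate number as a block 0 enzymes were called in any contrast. Deviations of same-numbered libraries correlated at -0.0657 to 0.0441, so no pairing by number was seen. With so wide a spread between pools, this check cannot exclude a pairing. Over all genes, in the order day 7, day 14, both days averaged, difference between days, time in GFP and time in Olig1, edgeR called 34, 6, 98, 0, 0 and 5 genes, with the block 29, 1, 64, 1, 0 and 5, DESeq2 954, 743, 1153, 527, 646 and 626, voom 430, 55, 460, 0, 17 and 313, no filter 218, 23, 401, 40, 13 and 59, and the fit without the microglia-rich libraries 43, 176, 349, 127, 145 and 15. Leaving out single libraries gave 1 to 81, 0 to 6, 26 to 133, 0 to 1, 0 to 2 and 0 to 10. DESeq2 size factors gave 24, 6, 86, 0, 0 and 0, the stricter filter 27, 2, 90, 0, 0 and 2, library totals 35, 6, 111, 0, 1 and 7, and fits of only the groups compared 28 at day 7 and 0 at day 14 and for both times. The cause was not tested. The summed ratio at day 7 was 0.719 on TMM-scaled libraries, against 0.651 on totals. Library totals and the microglia-rich libraries were chosen as alternatives after seeing the data, and the second leaves GFP day 14 with 1 library, assumed to vary like the other groups. Pfkfb1, Pfkfb2, Pfkfb4, Pdk3, Pdk4 and Pgd were at or near the upper limit of a count of 0 in some libraries, which limits what their levels show. GFP day 14 replicate 1 had 0 counts of Pdk3 in a total of 25507230, and Olig1 day 7 replicate 3 had 529 in 14795354. The part of depth in these low counts was not tested.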
